A study of Arabidopsis thaliana with 12 samples.

Results

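Expression of 6 genes of nucleotide supply and replication licensing was followed across 4 groups of *Arabidopsis thaliana* seedlings, and the genes were listed by name and function with earlier results of these data known. *TSO2* (AT3G27060) encodes a small subunit of ribonucleotide reductase and *RNR1* (AT2G21790) its large subunit. *TK1A* (AT3G07800) encodes a thymidine kinase. *CDC6* (AT2G29680) encodes a loading factor of the replicative helicase, *MCM7* (AT4G02060) a subunit of that helicase and *CDC45* (AT3G25100) its activating partner. These 6 genes were 6 of 22746 probe sets on the Affymetrix ATH1 array once the control probe sets had been left out, each gene had 1 probe set, and all 6 passed the filter on low values. *CDC6* passed it only through the 5-AC arrays, so that its difference between 5-AC and the other groups was partly set by the filter.

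Ribonucleotide reductase converts ribonucleotides to deoxyribonucleotides, and thymidine kinase recovers thymidine for the same pool by salvage. Before S phase, the origin recognition complex, CDC6 and CDT1 load the ring of MCM2 to MCM7 subunits onto origins of replication, a step known as licensing. At the start of S phase, CDC45 and the GINS complex join the ring and turn it into the active helicase. In plants, as in other eukaryotes, many of these genes are targets of the E2F transcription factors and are transcribed mainly in dividing cells.

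RNA was extracted from whole seedlings of the Ws ecotype, 3 arrays a group and 12 in all, and the groups are named as follows. The 5-AC group was Ws given 20 mg/L 5-aza-2′deoxycytidine, an analogue of deoxycytidine that is built into DNA and traps cytosine methyltransferases. The *ddm1* group was a line of the same ecotype with a T-DNA in *DDM1*, a chromatin remodelling gene required for DNA methylation, made homozygous and selfed, and given the solvent DMSO alone. The TSA group was Ws given 2.5 mg/L trichostatin A, an inhibitor of histone deacetylases, and the Ws group received DMSO alone. All seedlings grew in liquid 0.5-strength MS medium with 1% sucrose at 21 °C in constant light, the compounds were added after 24 hours in DMSO, and the medium was replaced after 5 days. The labels place the harvest at 10 days after germination, while the methods of the study give a later day. The mutant is a single line. The methods of the study call the replicates of wild type, mutant and treatment biological but do not describe the TSA group, and neither they nor the labels say whether replicates were separate cultures, so that the tests measure the spread between these samples.

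Values are log2 expression values, on which a difference of 1 is a doubling, and levels of different probe sets are not set against each other here. The arrays of a group correlated with each other at 0.961 to 0.987 over the probe sets tested, and array medians lay between 4.92 and 5.03. The *DDM1* probe set read 7.59 to 7.91 on the arrays labelled *ddm1* and 4.64 to 5.21 on the Ws arrays, so that the disrupted gene gave the higher reading on the arrays labelled for its disruption. It read 7.04 to 7.53 on the 5-AC arrays. Which part of the transcript it measures, relative to the T-DNA, is not given in the sources used here, and it does not check the labels. The seedling marker *PYK10*, a root beta-glucosidase gene, was between 11.94 and 12.85 on all 12 arrays, while *RBCS1A* and *LHCB1.3*, the markers of green tissue, have no named probe set here. In RNA from whole seedlings, fewer cells of a type and less RNA per cell cannot be told apart.

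The names of the probe sets bear on every count below. Only *MCM7* was named by the platform's own table, under another symbol. The other 5 genes were named through the study's tables of genes that changed after 5-AC on these same arrays, so their direction after 5-AC is not independent evidence, and it is given as a description.

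After 5-AC, the 3 nucleotide supply genes and *CDC6* were higher than in Ws, and *MCM7* and *CDC45* were lower. In all, 4 of the 6 genes were called higher, beside 30.8% of the probe sets tested, and 2 of 6 lower, beside 26.2%. The arrays of 5-AC and Ws did not overlap for any of the 6 genes, beside 62.3% of the probe sets tested. Since 57% of the probe sets tested were called in either direction, a call alone sets these genes apart little. The sizes ran from 9.90-fold higher for *TSO2* to 1.94-fold lower for *MCM7*, and their median log2 difference was 2.22, beside 0.05 over all probe sets tested.

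*TSO2*, the small reductase subunit, read 11.51, 11.83 and 11.77 on the 5-AC arrays and 7.79, 8.63 and 8.77 on the Ws arrays. The lowest 5-AC array lay far above the highest Ws array, and Ws replicate 1 stood below the other 2. The log2 difference was 3.31 (SE 0.24, 95% interval 2.78 to 3.83, adjusted p = 9.8e-07). *TK1A*, which phosphorylates thymidine, read 10.71, 10.30 and 10.58 on the 5-AC arrays and 7.34, 7.18 and 7.67 on the Ws arrays. Again the groups lay well apart, by 3.13 on the log2 scale (SE 0.26, 95% interval 2.56 to 3.71, adjusted p = 2.7e-06), or 8.76-fold.

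*RNR1*, the large reductase subunit, read 9.43, 9.88 and 10.19 on the 5-AC arrays and 7.21, 7.51 and 7.82 on the Ws arrays. Its spread was similar in both groups, and its log2 difference was 2.32 (SE 0.21, 95% interval 1.84 to 2.79, adjusted p = 5.6e-06). The estimate for *TSO2*, the other subunit of the same enzyme, was larger, but the intervals met and the differences were not tested against each other. *CDC6* read 5.00, 4.65 and 4.72 on the 5-AC arrays and 2.66, 2.59 and 2.71 on the Ws arrays. The Ws values lay near the 25th percentile of each array (2.62 to 2.70), so the gene was close to the array's floor without 5-AC. The log2 difference of *CDC6* was 2.13 (SE 0.13, 95% interval 1.84 to 2.43, adjusted p = 3.6e-07), and the 4.39-fold difference was taken against readings at that floor.

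*MCM7* and *CDC45* went the other way. *MCM7*, the gene whose name does not come from the study's tables, read 4.50, 4.58 and 5.16 on the 5-AC arrays and 5.58, 5.54 and 5.99 on the Ws arrays. Replicate 3 was the highest array in both groups, and the highest 5-AC array still lay below the lowest Ws array. The log2 difference was -0.96 (SE 0.19, 95% interval -1.38 to -0.53, adjusted p = 0.0015), a call that the methods' t-test did not make (adjusted p = 0.069). *CDC45* read 2.01, 2.36 and 2.46 on the 5-AC arrays and 2.90, 3.36 and 3.33 on the Ws arrays. All 3 of its 5-AC values lay below the 25th percentile of the array, so that the log2 difference of -0.92 (SE 0.20, 95% interval -1.36 to -0.48, adjusted p = 0.0023) was measured at the floor.

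**Figure D1:**
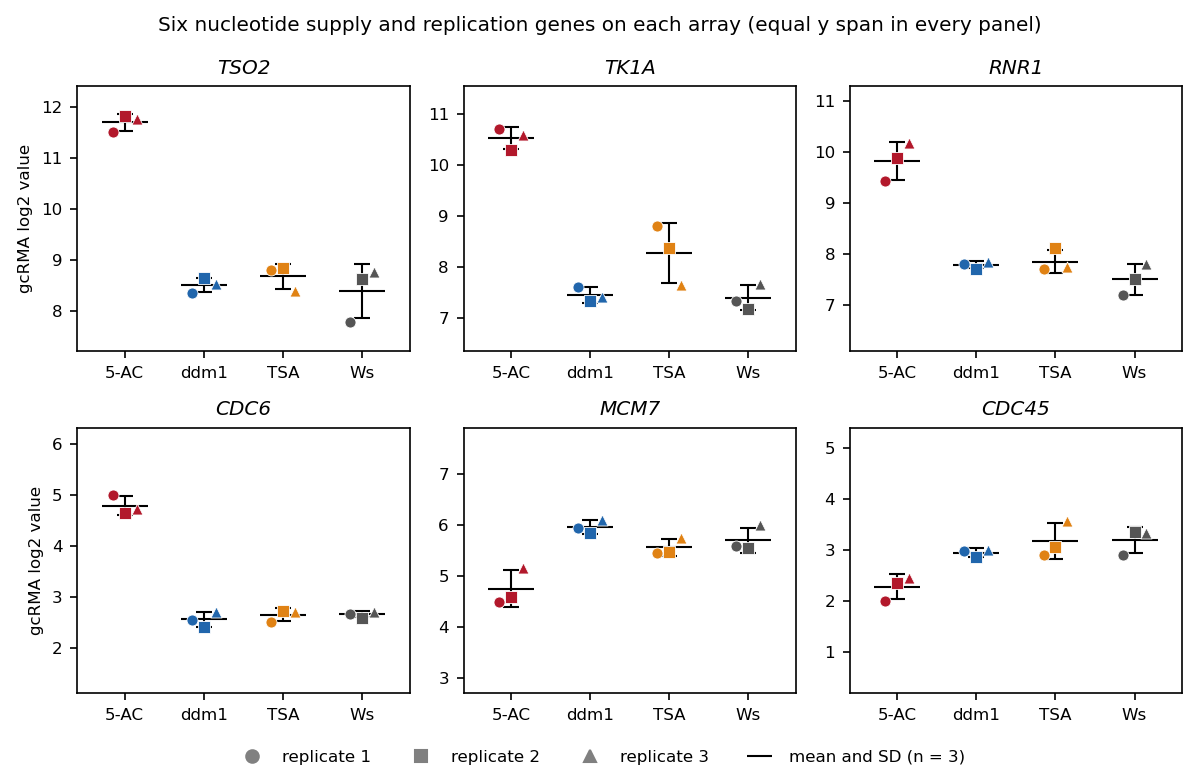
Log2 value (y axis) of the 6 genes on each of the 12 arrays by group (x axis), with the mean and SD of 3 arrays as black bars and a marker shape for each replicate number. The 5-AC arrays stand apart from the other 3 groups in every panel, above them for TSO2, TK1A, RNR1 and CDC6 and below them for MCM7 and CDC45.

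On the arrays labelled *ddm1*, none of the 6 genes was called against Ws, beside 1.56% of the probe sets tested. By limma at an unadjusted p under 0.05 the count was also 0 of 6, beside 6.73% of the probe sets, and by the methods' t-test 0 of 6, beside 0.203%. *TSO2* read 8.35, 8.64 and 8.54 on the arrays labelled *ddm1*, within the Ws range of 7.79 to 8.77. *TK1A* read 7.61, 7.33 and 7.41 there, and its Ws arrays ran from 7.18 to 7.67. *RNR1* read 7.82, 7.71 and 7.86, against a Ws range of 7.21 to 7.82. These 3 nucleotide supply genes thus gave overlapping readings, with log2 differences of 0.11, 0.05 and 0.28 in that order.

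For licensing and the helicase the arrays overlapped too, as they did for most probe sets tested. *CDC6* read 2.55, 2.42 and 2.71 on the arrays labelled *ddm1*, against a Ws range of 2.59 to 2.71. *MCM7* read 5.95, 5.84 and 6.10, against a Ws range of 5.54 to 5.99. *CDC45* read 2.99, 2.86 and 3.0, against a Ws range of 2.90 to 3.36. The log2 differences of the 3 genes were -0.10, 0.26 and -0.25. Over the 6 genes the 95% intervals reached from -0.69 (*CDC45*) to 0.75 (*RNR1*), so that a difference of the size seen after 5-AC lay outside the interval of the arrays labelled *ddm1* for each of them.

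After TSA, *TK1A* was the 1 gene of the 6 that was called, and it was higher, beside 14.4% of the probe sets tested called in either direction and 7.11% called higher. It read 8.81, 8.37 and 7.64 on the TSA arrays and 7.34, 7.18 and 7.67 on the Ws arrays. Replicates 1 and 2 after TSA lay above every Ws array, whereas replicate 3 fell within the Ws range, so the groups overlapped. The log2 difference was 0.88 (SE 0.26, 95% interval 0.30 to 1.45, adjusted p = 0.047), or 1.83-fold. The call held in 8 of 16 settings, the main one included, and the adjusted p ran from 0.0042 to 0.36. It was lost without TSA replicate 1 (log2 difference 0.61, adjusted p = 0.14), without TSA replicate 2 (0.13 for the adjusted p), and without Ws replicate 1 or 2 (0.12 and 0.15).

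The other nucleotide supply genes were not called after TSA. *TSO2* read 8.81, 8.84 and 8.40 on the TSA arrays, for a log2 difference of 0.29 from Ws (95% interval -0.24 to 0.82). *RNR1* read 7.71, 8.13 and 7.75, for 0.35 (95% interval -0.12 to 0.82). Both intervals include 0, and their upper bound of 0.82 lies close to the difference called for *TK1A*, so that a modest change cannot be told from none. *CDC6* read 2.50, 2.73 and 2.71 after TSA, near the array floor as in Ws. *MCM7* read 5.46, 5.48 and 5.75 and *CDC45* 2.90, 3.06 and 3.57. The log2 differences of these last 3 genes were -0.01, -0.14 and -0.02, with intervals that reached no further than -0.57 and 0.42.

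In the direct comparison of 5-AC with the arrays labelled *ddm1*, all 6 genes were called, beside 56.4% of the probe sets tested, 4 of them higher (30.8% of the probe sets) and 2 lower (25.7%). The log2 differences were 3.19 for *TSO2*, 3.08 for *TK1A*, 2.03 for *RNR1* and 2.23 for *CDC6*. *MCM7* differed by -1.22 (adjusted p = 3e-04) and *CDC45* by -0.67 (adjusted p = 0.014), and the methods' t-test made neither of these last calls (adjusted p = 0.055 and 0.074). The call of *CDC45* was lost without 5-AC replicate 1, at a log2 difference of -0.54 and an adjusted p of 0.057. This comparison shares its 5-AC arrays with that against Ws.

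TSA against 5-AC, a comparison of the 2 compounds that shares the same 5-AC arrays, also gave 6 calls of 6, beside 53.1% of the probe sets tested, with 2 higher after TSA (23.8% of the probe sets) and 4 lower (29.3%). The log2 difference, TSA minus 5-AC, was -3.02 for *TSO2*, -2.14 for *CDC6* and -1.97 for *RNR1*. For *TK1A*, which was called higher than in Ws after both compounds, it was -2.26 (95% interval -2.83 to -1.68). *MCM7* was higher after TSA by 0.82 and *CDC45* by 0.90. The methods' t-test called 3 of the 6, *TSO2*, *RNR1* and *CDC6*, beside 19.5% of the probe sets. The 2 compounds were given at different doses, 2.5 mg/L for TSA and 20 mg/L for 5-AC.

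**Figure D2:**
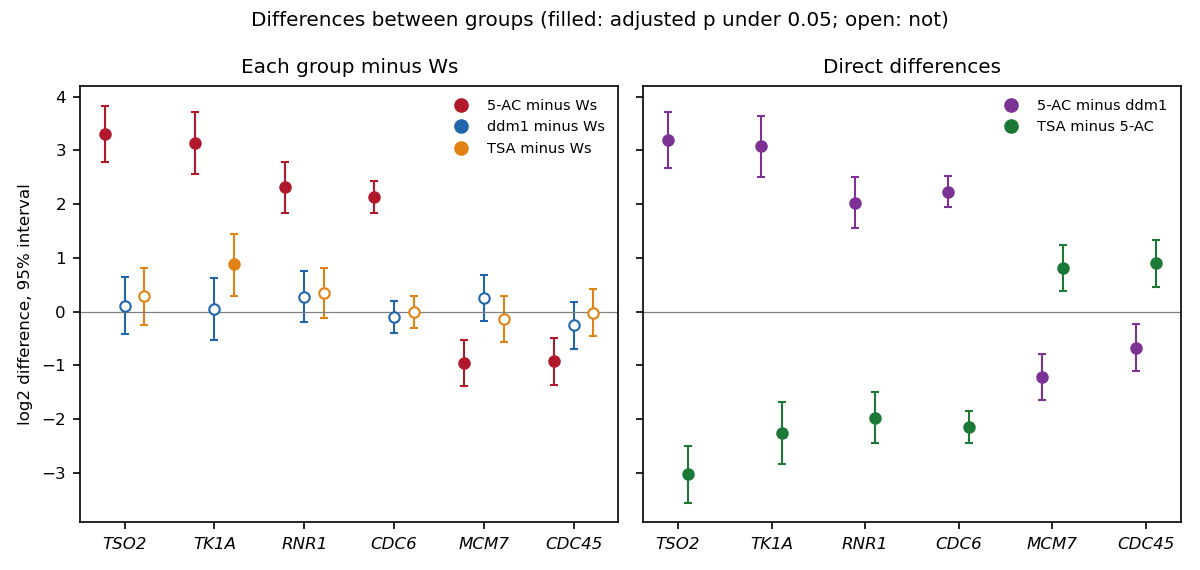
Log2 differences of the 6 genes (y axis, with 95% intervals from the fit) between groups, each group minus Ws on the left and the direct differences on the right, filled where the adjusted p was under 0.05. The 5-AC points run from 3.31 for TSO2 to -0.96 for MCM7, the points of the arrays labelled ddm1 are all open, and TK1A is the only filled point of TSA minus Ws.

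By group, the 5-AC level stood apart from the others. *TSO2* averaged 11.70 ± 0.17 after 5-AC, 8.51 ± 0.14 on the arrays labelled *ddm1*, 8.68 ± 0.24 after TSA and 8.40 ± 0.53 in Ws (SD, n = 3 each), and the last 3 groups overlapped. *TK1A* averaged 10.53 ± 0.21 after 5-AC, 7.45 ± 0.15 on the arrays labelled *ddm1*, 8.27 ± 0.59 after TSA and 7.40 ± 0.25 in Ws. The TSA group had the widest spread of *TK1A*. *MCM7* averaged 4.75 ± 0.36 after 5-AC, 5.96 ± 0.13 on the arrays labelled *ddm1*, 5.56 ± 0.16 after TSA and 5.70 ± 0.25 in Ws. Replicate 3 was the highest *MCM7* array in each of the 4 groups.

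How alike the patterns of the 6 genes were was measured as the root mean square difference of their centred log2 values over the 12 arrays, a description with no test. *RNR1* and *CDC6* differed by 0.30, as did *MCM7* and *CDC45*, the smallest of the 15 pairs. *TSO2* and *TK1A* differed by 0.44, while *TSO2* and *MCM7* were furthest apart at 1.84. The 12 points share their arrays and normalization, and the measure takes in the 5-AC difference already given. Among probe sets with 1 gene name, the pattern of *TSO2* was most like AT5G11930 (0.187), *EMB2813* (0.236), which encodes the large primase subunit also written *POLA4*, and AT5G47130 (0.278). That of *TK1A* was most like AT3G02500 (0.240), *CYP72A7* (0.245) and *NAC103* (0.263).

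For the remaining genes the differences from the nearest probe sets were smaller in size. *RNR1* was most like AT3G15590 (0.175), *MORF3* (0.178) and AT1G26540 (0.179). *CDC6* was most like AT5G07380 (0.104), AT2G39725 (0.145) and AT3G48600 (0.151). *MCM7* was most like AT1G35780 (0.131), AT2G33370 (0.145) and AT2G04280 (0.161), and *CDC45* like AT1G76880 (0.147), AT1G55890 (0.162) and AT5G43960 (0.162). The median difference over all probe sets tested was 1.41 for *TSO2*, 1.31 for *TK1A*, 0.98 for *RNR1*, 0.97 for *CDC6*, 0.67 for *MCM7* and 0.62 for *CDC45*. This median was thus also smaller for the remaining genes, so that closeness of likeness is not ranked between the 6 genes.

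Partners of the 6 genes in the same steps were counted from lists of genes for nucleotide supply, origin licensing, the helicase and the replication fork. Beside the 6, 19 genes of these lists had a named probe set, of which 17 were tested. After 5-AC, 15 of the 17 were higher, beside 30.8% of the probe sets tested, 1 was lower, beside 26.2%, and 1 was not called, with a median log2 difference of 1.43, beside 0.05 over all probe sets tested. With the arrays centred on housekeeping genes, 14 of the 17 were higher, and the median was 1.18. The other 12 of the 17 owed their name to the study's tables of changed genes, which fixes much of that count. Of the 5 tested genes named by the platform's table, 4 were higher and 1 was not called. *MCM7* was thus the only platform-named gene of these lists that was called lower after 5-AC, the 6 genes included.

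Among the other nucleotide supply genes, *THY-3*, a dihydrofolate reductase-thymidylate synthase, read 6.59, 6.32 and 6.80 on the 5-AC arrays and 5.44, 5.72 and 5.13 on the Ws arrays. Its arrays did not overlap, and the log2 difference was 1.14 (adjusted p = 0.031), a call lost without 5-AC replicate 1 (0.072), 5-AC replicate 3 (0.086), Ws replicate 1 (0.066) or Ws replicate 3 (0.097), with no filter (0.059) and with housekeeping centring (0.086). *ZEU1*, the thymidylate kinase gene, was lower after 5-AC by the same amount, at -1.14 (adjusted p = 0.0011). *DCTD*, for deoxycytidylate deaminase, was between 2.39 and 2.77 on all 12 arrays and was not tested. No named probe set was found here for *RNR2A*, the other small reductase subunit, or for *TK1B*, the other thymidine kinase, so that *TSO2* and *TK1A* could not be set beside their copies.

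Licensing genes were higher after 5-AC in 3 of 3 tested, beside the same 30.8%, all named through the study's tables. *ORC4* and *ORC6*, subunits of the origin recognition complex, differed by 2.53 and 2.27 on the log2 scale, and *ORC3* by 1.33, close to the array floor outside 5-AC, where it read 2.41 to 2.52. Like *CDC6*, *ORC3* passed the filter only through the 5-AC arrays. *CDC6B*, the copy of *CDC6*, stayed between 2.28 and 2.58 on all 12 arrays and was not tested. The *CDC6* difference was therefore read on 1 copy alone.

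Of the 4 other helicase genes tested, 3 were higher after 5-AC, beside 30.8% of the probe sets tested, and 1 was not called. The 3 were named through the study's tables. Of the GINS subunits, *SLD5* was higher after 5-AC by 1.43, *PSF1* by 1.16 and the probe set of *PSF3*, which also matches a second locus, by 1.37. *PSF2*, the GINS gene named by the platform's table, read 3.40, 3.47 and 3.36 on the 5-AC arrays and 3.66, 3.19 and 3.62 on the Ws arrays. These arrays overlapped, with a log2 difference of -0.08 that was not called. The other MCM genes, *MCM2* to *MCM6*, have no named probe set here, so that *MCM7* stood for the ring alone.

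At the replication fork, 8 of 8 genes were higher after 5-AC, again beside 30.8%, from 1.15 to 3.56. The largest were *RPA1E*, a subunit of the single-strand binding protein (3.56), and *POLA4*, the large primase subunit (3.05). Of these, 3 had platform names, and they were singled out for that after their values were seen, namely *POLA3*, the small primase subunit (1.63), *ICU2*, the catalytic subunit of DNA polymerase alpha (1.54), and *FEN1*, a flap endonuclease (1.15, with an adjusted p of 0.059 by the methods' t-test). S-phase control genes were higher in 4 of 4, beside 30.8%, all named through the study's tables. Among them were *E2FC* (2.01), *DPA*, listed as an E2F partner (1.82), and *RBR1*, the retinoblastoma protein gene (1.53).

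**Figure D3:**
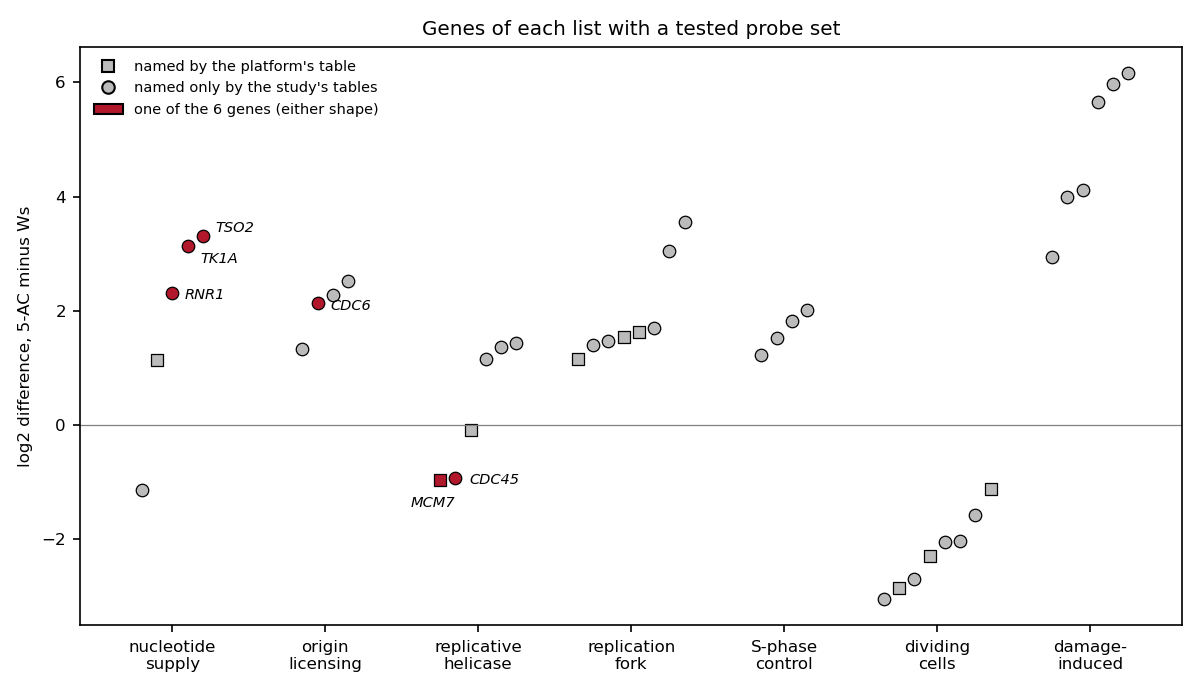
Log2 difference, 5-AC minus Ws (y axis), of each tested gene of 7 lists (x axis), with squares for genes named by the platform's table, circles for those named only by the study's tables, and red for the 6 genes. MCM7 (-0.96) and CDC45 (-0.92) lie below 0, as do ZEU1 (-1.14), PSF2 (-0.08, not called) and the 8 dividing cell markers. The 6 damage genes lie between 2.94 and 6.16.

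A pair of lists shows what else moved with the 6 genes after 5-AC. Of 14 listed markers of dividing cells, 8 had a named probe set, 5 of them named only through the study's tables. All 8 were lower, beside 26.2% of the probe sets tested. The 3 platform-named were *AUR1*, an Aurora kinase (-2.29), *TOPII*, DNA topoisomerase II (-2.85), and *AUR2*, another Aurora kinase named after its value was seen (-1.12). The largest difference of the 8 was that of *KN*, the cell plate syntaxin, at -3.04, and *HIK*, a cytokinesis kinesin, was at -2.70. Summed over the 8 genes, the linear level was 102.8 to 123.7 on the 5-AC arrays and 418.9 to 614.5 on the Ws arrays. *CYCB1;4* and *TOPII* lay below the 25th percentile of the array after 5-AC. The call of *AUR2* was lost without 5-AC replicate 2 (-0.89, adjusted p = 0.051) and by the methods' t-test (0.16). Of the seedling tissue markers, both tested were lower after 5-AC, *EXPA7*, a root hair expansin gene, at -2.40, with its 5-AC arrays below the 25th percentile too, and *PYK10* at -0.52. The methods' t-test called neither (adjusted p = 0.069 and 0.14).

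Of the genes induced by DNA damage, 6 of 6 were higher after 5-AC, beside 30.8% of the probe sets tested, all named through the study's tables. They were led by *CYCB1;1*, a mitotic cyclin gene (6.16), *SMR5*, a cell cycle inhibitor gene (5.98), *BRCA1* (5.66) and *PARP2* (4.11). *CYCB1;1* was listed here as induced by damage, so the count of dividing cell markers, all lower, leaves out this mitotic cyclin. The summed linear level of the 6 damage genes was 5833.1 to 6835.4 on the 5-AC arrays and 133.7 to 205.0 on the Ws arrays. The arrays on which *TSO2*, *TK1A*, *RNR1* and *CDC6* were higher, and *MCM7* and *CDC45* lower, were thus the ones with higher damage genes and lower dividing cell markers. The part of either list in these differences was not tested.

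On the arrays labelled *ddm1*, none of the 17 partner genes, the 8 dividing cell markers or the 6 damage genes was called, beside 1.56% of the probe sets tested. The dividing cell markers summed to 525.0 to 635.3 there, and the damage genes to 181.7 to 261.5, beside 133.7 to 205.0 on the Ws arrays.

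After TSA, 1 of the 17 partner genes was called, beside 14.4% of the probe sets tested, namely *PSF2*, higher by 0.90 (adjusted p = 0.018). It read 4.70, 4.53 and 3.93 on the TSA arrays and 3.66, 3.19 and 3.62 on the Ws arrays, and the call was lost without TSA replicate 1 (0.066), TSA replicate 2 (0.069) or Ws replicate 2 (0.071), by the methods' t-test (0.27) and with only the 2 groups fitted (0.08). None of the 8 dividing cell markers was called, with sums of 503.7 to 618.8 on the TSA arrays. Of the damage genes, *CYCB1;1* was called, higher by 1.19 (adjusted p = 0.0044), a call that the methods' t-test did not make (0.18).

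The damage genes also differed among the TSA arrays. Their mean log2 value was 5.77, 4.96 and 4.53 on TSA replicates 1, 2 and 3, and 4.03, 4.57 and 4.52 on the Ws arrays. *TK1A* was at 8.81, 8.37 and 7.64 on the same TSA arrays, so that replicate 1 was highest and replicate 3 lowest for both. *TSO2* (8.81, 8.84 and 8.40) had its lowest TSA array in replicate 3 as well, while *RNR1* was highest in replicate 2. With 3 arrays this is a description of single libraries, and the part of the damage genes in the *TK1A* difference was not tested.

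**Figure D4:**
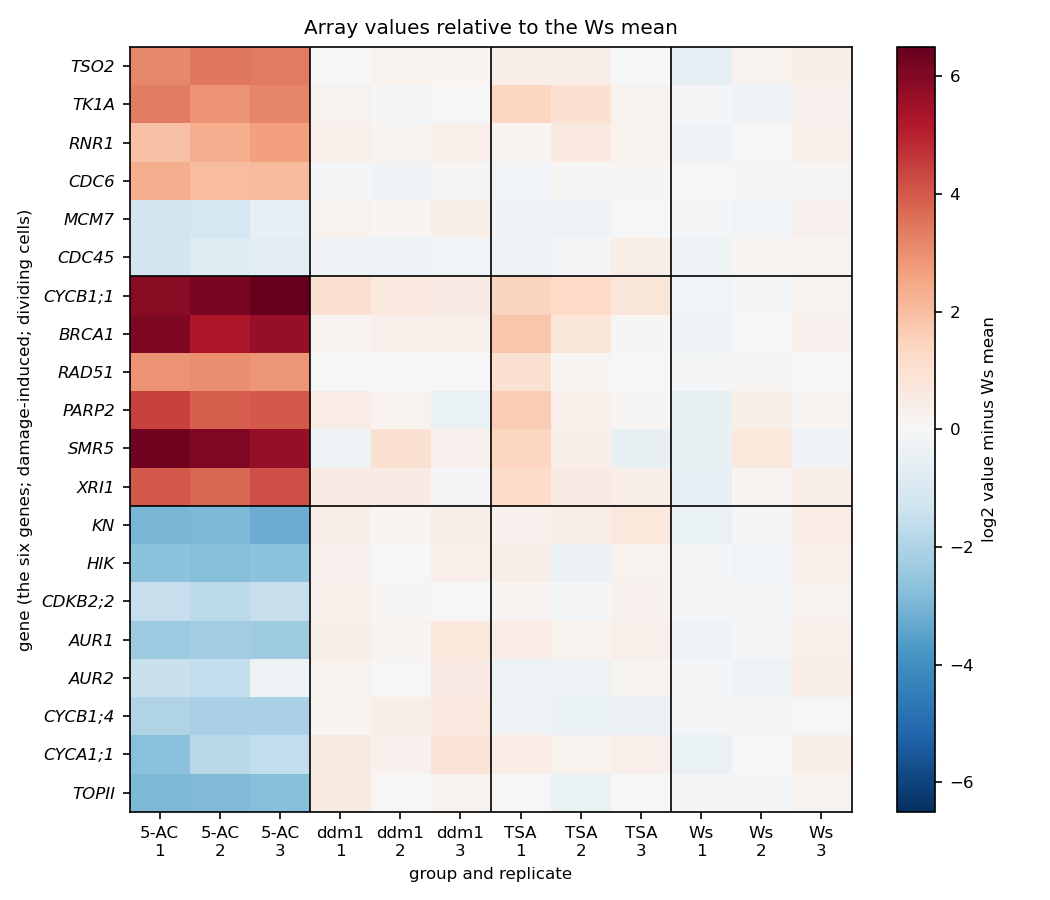
Log2 value minus the Ws mean (colour) of the 6 genes, 6 damage genes and 8 dividing cell markers (rows) on each of the 12 arrays (columns, by group and replicate). On the 5-AC arrays TSO2, TK1A, RNR1, CDC6 and the damage genes are above the Ws mean and MCM7, CDC45 and the dividing cell markers below it, and on the TSA arrays TK1A and the damage genes are strongest in replicate 1.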

How the data were processed

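The authors computed the deposited log2 values of the Affymetrix ATH1 arrays with gcRMA 2.2.0 in Bioconductor 1.7, which adjusts background by probe sequence and normalizes by quantiles, a step that assumes that most genes keep their level. Here 64 control probe sets were left out, and as many probe sets were kept as the methods select by present calls (MAS 5.0), those with the highest second-highest value (at least 2.98). Differences were tested with limma 3.58.1 (R 4.3.3), lmFit and eBayes, over all 12 arrays with 1 coefficient a group, two-sided, with Benjamini-Hochberg adjustment over all probe sets tested and a threshold of 0.05. The unequal-variance test named in the methods is called the methods' t-test. The procedure was tested on simulated data with independent arrays and few changed probe sets. The data here differ in both, so that the simulation does not check the calls.

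Probe sets were named by locus through the platform's table (13527 with 1 gene, 489 with several), otherwise through the study's tables (1777), and 6953 were left without a name. Of 100 listed loci, 48 had a named probe set. The 6 genes and the lists were chosen with earlier results of these data known. Named in the text are the 6 genes, their copies and partners, the called genes with the largest differences of each list, and the 3 genes most like each of the 6 among 11263 probe sets with 1 gene name. Sequences were not analysed here.

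Same-numbered replicates deviated together on the arrays labelled *ddm1* and Ws (correlations 0.406, 0.521 and 0.228), on 5-AC and *ddm1* (0.257, 0.125 and 0.107) and on TSA and 5-AC (0.128, 0.134 and 0.185), but not in every pair of the other comparisons. For TSA and 5-AC the highest correlation between arrays of different number, 0.19, was as large, so that the numbers there hardly stand apart. Alternatives were other filters, single-sequence probe sets, the methods' t-test, an intensity trend, the 2 groups alone, a replicate block, other centring and each array left out. The number of arrays limits the precision.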

Additional observations from a re-analysis of the deposited data

How the results depend on the processing

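Called differences of the 6 genes kept their direction in every alternative run for them, while several calls did not hold. The methods' t-test called 4554 probe sets for 5-AC against Ws, where limma called 9804, and 35 against 269 for the arrays labelled *ddm1* against Ws, 8 against 2477 for TSA against Ws, 5166 against 9710 for 5-AC against *ddm1* and 3357 against 9132 for TSA against 5-AC. It called 3 of the 6 genes for TSA against 5-AC. For the arrays labelled *ddm1* against Ws, the stricter filter left 166 probe sets called and single-sequence probe sets 150. For TSA against Ws, fitting only the 2 groups left 1643, and 0 of the 6 genes were called with no filter, by the methods' t-test, in the 2 groups alone or with the housekeeping genes as centre. Leaving out 1 array gave 0 to 1 called genes for TSA against Ws (1545 to 2599 probe sets), 5 to 6 for 5-AC against *ddm1*, and 8682 to 9659 probe sets for 5-AC against Ws and 228 to 265 for *ddm1* against Ws. The stricter filter dropped *CDC6* and *CDC45*, and 4 of 4 remained called after 5-AC against Ws.

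Sign changes were seen only in differences near 0 that were never called. On the arrays labelled *ddm1* against Ws, *TSO2* ran from -0.19 to 0.30 and *TK1A* from -0.06 to 0.19 with 1 array left out, and *TK1A* was -0.04 with housekeeping centring. For TSA against Ws, *TSO2* ran from -0.02 to 0.48, *CDC6* from -0.05 to 0.06, *MCM7* from -0.23 to 0.00 and *CDC45* from -0.22 to 0.12 with 1 array left out, and *CDC6* was 0.01 with array medians as centre. Centring on *SAND*, *UBC21* and *TIP41L* moved the median over all probe sets for 5-AC against Ws to -0.21, from 0.05, and the share of calls that were higher to 38.9%, from 54.0% (TSA against Ws 39.2%, from 49.4%, 5-AC against *ddm1* 44.4%, from 54.5%, TSA against 5-AC 58.0%, from 44.9%). Of these 3 genes *TIP41L* itself was higher by 1.14 after 5-AC and *UBC21* lower by 0.52. The causes were not tested. The replicate block changed no call among the 6 genes, with 6, 0, 1, 6 and 6 calls in the 5 comparisons, and 10205 probe sets called for 5-AC against Ws. For 5-AC against Ws and TSA against Ws, whose numbers did not pair the samples, it moved the counts by less than 1.5 times.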
